A study of Mus musculus with 12 samples.

Results

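Integrins are the cell surface receptors that hold a neuron, a glial cell or a fibroblast to the matrix around it. The genes described here are 10 integrin subunits that bind laminin, collagen or other matrix proteins: Itga1, Itga2, Itga3, Itga5, Itga6, Itga7, Itga8, Itgb1, Itgb4 and Itgb8. They were chosen by gene symbol among the probes (1 probe set per gene on this array, for each of these genes) of a Clariom S Mouse array, and 9 of the 10 had a probe, out of 19505 genes and 19572 probes with a gene symbol. No probe was listed for Itga1, which is not analysed here. Each of the other 9 was measured on all 12 arrays. These genes, and the gene lists set beside them, were chosen with earlier results of these data known. Counts and medians set beside those of all probes are therefore descriptions and not tests.

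The cells were mouse trigeminal ganglion neurons, which carry touch and pain from the face, kept as a primary culture on coverslips with a laminin coat, so that every group grew on a ligand of these receptors. There were 4 groups of 3 arrays, transfected with scramble miRNAs, miR-21, miR-34a or miR-324, and no group was left untransfected. Strain, age, time after transfection and dose are not given in the labels. Whether replicate arrays stem from different animals or cultures is not stated either. The p-values therefore reflect the spread among these 12 arrays, and how much of that spread is technical is not known. The values are log2 signals, and a difference of 1 is a doubling.

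An integrin is a pair of an alpha and a beta subunit. The alpha subunit largely sets the ligand: alpha3, alpha6 and alpha7 bind laminins, alpha1 and alpha2 bind collagens, and alpha5 and alpha8 bind proteins with an RGD motif such as fibronectin and nephronectin. Beta1 is the shared partner of all of these alpha subunits, beta4 pairs with alpha6 alone and anchors cells to laminin in the basement membrane, and beta8 pairs with alphav and takes part in releasing active TGF-beta from its latent form. In peripheral nerve, laminin receptors carry axon growth on the Schwann cell basement membrane and are needed by Schwann cells to sort and myelinate axons.

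The compared agents are miRNAs, short RNAs that pair with messenger RNAs mainly through the seed, bases 2 to 8. Their mature sequences in RefSeq (GRCm38.p6) are shown, with the seed in capitals, because the seed is what sets the 3 treatments apart. The labels do not state the arm, so the 5p arm is printed for each, and both arms for miR-324.
mmu-miR-21a-5p: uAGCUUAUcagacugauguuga
mmu-miR-34a-5p: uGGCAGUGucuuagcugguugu
mmu-miR-324-5p: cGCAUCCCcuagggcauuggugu
mmu-miR-324-3p: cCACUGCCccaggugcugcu
They lie at chr11:86584120-86584141 on the minus strand, chr4:150068473-150068494 on the plus strand, chr11:70012060-70012082 and chr11:70012095-70012114 on the plus strand. No seed was shared among the 4 sequences. The seed of miR-324-3p, CACUGCC, is the reverse complement of the seed of miR-34a-5p, GGCAGUG. The 3′ untranslated regions of the integrin genes were not used here, so no seed site was looked for.

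The arrays had median log2 signals between 5.91 and 6.06. The floor of an array was taken as the 95th percentile of its olfactory and vomeronasal receptor probes and lay between 4.87 and 5.80. All 15 pan-neuronal markers were above the floor on all 12 arrays, with median log2 signals of 10.19 to 14.31, and the median signals of markers of satellite glia (10.12 to 11.78), endothelium (8.42 to 12.44) and fibroblasts (7.19 to 10.48) were above it too. Bulk RNA of this kind cannot tell fewer cells of a type from less RNA per cell. Some arrays stood apart within their groups. The labels give scramble 1 and 2 and miR-34a 1 and 2 a suffix, called A here, and scramble 3 and miR-324 2 another, called B. The other 6 arrays, which are miR-21 1, 2 and 3, miR-34a 3 and miR-324 1 and 4, have none, and what the suffix stands for is not stated. The labels of the suffix B arrays, and no others, also hold the word mimic. The Y-linked gene Eif2s3y lay between 5.13 and 8.53 on the 6 arrays without a suffix and between 2.13 and 2.96 on the other 6. Prl, a pituitary hormone gene, lay between 14.26 and 15.17 on scramble 3 and the miR-324 arrays and between 3.37 and 4.83 on the other 8.

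Among the integrins, Itgb8 was the one subunit that passed the test against scramble, and it did so with miR-21. With miR-21, 1 of the 9 measured subunits rose and 0 fell at an adjusted p under 0.05 in limma, where 1.04% of all named probes were called. In that comparison 7 of the 9 had every miR-21 array above every scramble array, against 16.9% of all named probes. They were Itga3, Itga5, Itga6, Itga7, Itgb1, Itgb4 and Itgb8. Every miR-21 array lacks a suffix and every scramble array has one, so miR-21 and the suffix cannot be told apart in this count. Over all groups, Itga3, Itga5, Itga6 and Itgb4 were higher on every array without a suffix than on every array with one. The median difference of the 9 was 1.12 on the log2 scale, beside 0.13 over all named probes, and it was 0.77 without scramble 3.

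With miR-34a, 0 of the 9 were called by limma, where 0% of all named probes were, and 1 of the 9, Itgb8, had an unadjusted p under 0.05, against 1.46% of all probes. Only Itgb1 had all 3 miR-34a arrays above all 3 scramble arrays, 1 of 9 against 3.49% of all named probes. The median difference was 0.36, beside 0.04 over all probes, and 0.09 without miR-34a 3. With miR-324, again 0 of 9 were called, where 0% of all probes were, and 4 of the 9 (Itga3, Itga5, Itga6 and Itgb4) had an unadjusted p under 0.05, against 14.7% of all probes. Another set of 4 (Itga2, Itga3, Itga6 and Itgb4) had all miR-324 arrays above all scramble arrays, against 12.6% of all named probes, and the median difference was 0.39 beside 0.09. These 3 comparisons use the same 3 scramble arrays, so they are not independent of each other.

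**Figure D1:**
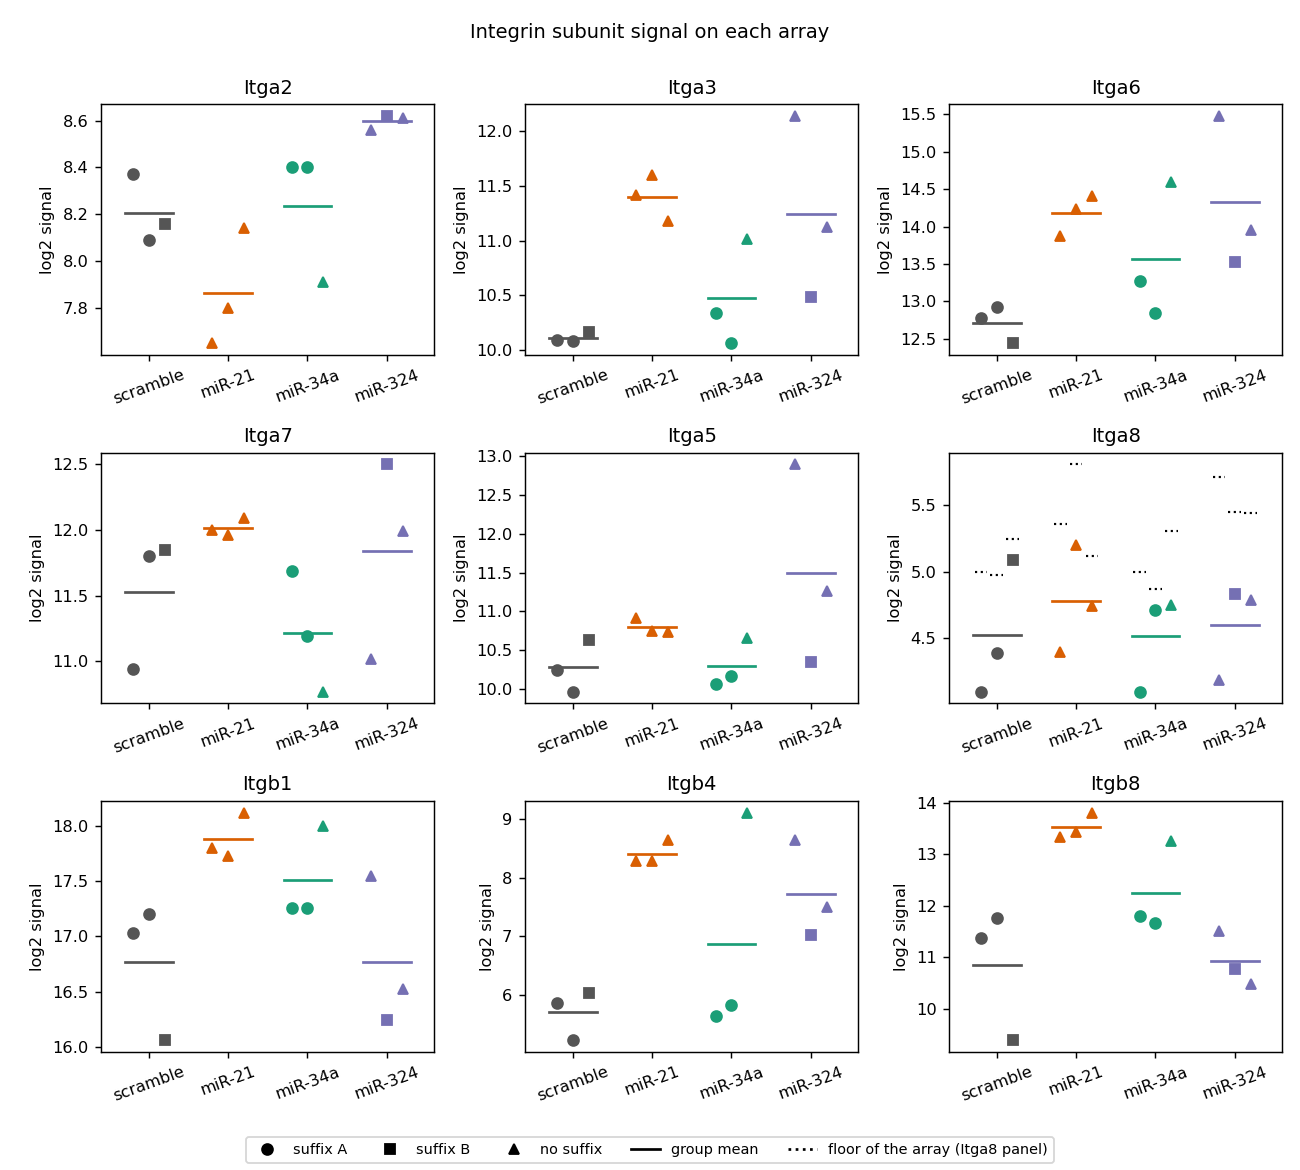
Log2 signal (y axis) of each of the 9 measured subunits on the 12 arrays, 1 panel a gene, with the arrays placed by group on the x axis, points for arrays by label suffix and bars for group means. Itgb8 sits between 13.33 and 13.81 on the miR-21 arrays and between 9.39 and 11.76 on the scramble arrays, and Itga8 stays at 5.20 or lower throughout.

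Itga3 (probe TC1100003584.mm.2) encodes the alpha subunit of a laminin receptor that pairs with beta1. Its log2 signal was 10.09, 10.08 and 10.16 on scramble 1, 2 and 3, 11.42, 11.60 and 11.18 on miR-21 1, 2 and 3, 10.34, 10.06 and 11.01 on miR-34a 1, 2 and 3, and 12.14, 10.48 and 11.12 on miR-324 1, 2 and 4. The scramble arrays lay within 0.08 of each other, all miR-21 and miR-324 arrays stood above them, and of the miR-34a arrays only the third stood far above. The difference from scramble was 1.29 ± 0.37 (standard error, SE; adjusted p = 0.11) with miR-21, 0.36 ± 0.37 (adjusted p = 0.999) with miR-34a and 1.14 ± 0.37 (adjusted p = 0.31) with miR-324. None of the 3 passed the test. The last was 0.69 without miR-324 1, and that with miR-34a was 0.09 without miR-34a 3.

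Itga6 (TC0200001045.mm.2), the alpha subunit that can pair with beta1 or beta4, had the same ordering of arrays within miR-34a and miR-324. It read 12.78, 12.92 and 12.44 on the scramble arrays and 13.88, 14.24 and 14.41 on the miR-21 arrays. On miR-34a 1, 2 and 3 it read 13.27, 12.85 and 14.60, and on miR-324 1, 2 and 4 it read 15.48, 13.53 and 13.96. The miR-21 and miR-324 arrays did not overlap with scramble, while miR-34a 2 lay inside the scramble range. The group levels were 12.71 ± 0.25 (SD, n = 3) for scramble, 14.18 ± 0.27 for miR-21, 13.57 ± 0.91 for miR-34a and 14.32 ± 1.02 for miR-324. The differences from scramble were 1.46 ± 0.50 (SE; adjusted p = 0.17), 0.86 ± 0.50 (adjusted p = 0.999) and 1.61 ± 0.50 (adjusted p = 0.31), in the order miR-21, miR-34a and miR-324. The last was 1.03 without miR-324 1. In the order of levels, scramble, miR-34a, miR-21 and miR-324, no neighbouring pair differed past the threshold.

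Itga7 (TC1000001626.mm.2), a laminin receptor subunit of muscle that sensory neurons also make after nerve injury, passed the test in no comparison. Its signals ran from 10.94 to 11.85 with scramble, from 11.96 to 12.09 with miR-21, from 10.77 to 11.69 with miR-34a and from 11.02 to 12.50 with miR-324. The miR-21 arrays were all above scramble, by 0.49 ± 0.38 (SE; adjusted p = 0.54, 95% interval -0.34 to 1.31), which did not pass. With miR-34a the difference was -0.31 ± 0.38 and with miR-324 it was 0.31 ± 0.38, and in both the arrays overlapped with scramble.

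Itgb4 (TC1100001916.mm.2), the beta subunit with the long intracellular tail that links laminin to the cytoskeleton, had the largest spread within groups among the 9. It read 5.86, 5.23 and 6.04 on the scramble arrays, close to the floor, and 8.29, 8.28 and 8.64 on the miR-21 arrays. It read 5.65, 5.83 and 9.11 on miR-34a 1, 2 and 3 and 8.65, 7.03 and 7.50 on miR-324 1, 2 and 4. All miR-21 and miR-324 arrays stood above all scramble arrays. Within miR-34a, 2 arrays lay at the scramble level and the third held the highest value of all 12. The difference was 2.69 ± 0.74 (SE; adjusted p = 0.098) with miR-21, 1.15 ± 0.74 (adjusted p = 0.999) with miR-34a and 2.02 ± 0.74 (adjusted p = 0.31) with miR-324. The difference with miR-21 was as large as that of Itgb8 but its error was larger, and it did not pass.

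Itga2 (TC1300002715.mm.2) encodes the alpha subunit of a collagen receptor. Its level was 8.21 ± 0.15 (SD, n = 3) with scramble, 7.86 ± 0.25 with miR-21, 8.24 ± 0.28 with miR-34a and 8.60 ± 0.03 with miR-324. It was the one measured subunit with a mean below scramble in miR-21, by -0.34 ± 0.22 (SE; adjusted p = 0.45), and these arrays overlapped with scramble. With miR-324 all 3 arrays, at 8.56, 8.62 and 8.61, stood above the highest scramble array at 8.37, and the difference of 0.39 ± 0.22 did not pass (adjusted p = 0.40). With miR-34a it was 0.03 ± 0.22, with a 95% interval from -0.44 to 0.50.

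Itga5 (TC1500002318.mm.2), the alpha subunit of the main fibronectin receptor, was led by 1 array. It read 10.24, 9.96 and 10.63 with scramble, 10.91, 10.75 and 10.73 with miR-21, 10.06, 10.16 and 10.65 with miR-34a, and 12.90, 10.34 and 11.26 on miR-324 1, 2 and 4. The miR-324 1 array stood 1.64 above the next, and miR-324 2 lay inside the scramble range. The differences were 0.52 ± 0.49 (SE; adjusted p = 0.62) with miR-21, 0.01 ± 0.49 (adjusted p = 0.999) with miR-34a and 1.22 ± 0.49 (adjusted p = 0.32) with miR-324. Without miR-324 1 the last was 0.52.

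Itga8 (TC0200002972.mm.2), the alpha subunit of the nephronectin receptor, was above the floor on 0 of the 12 arrays. Its signals lay between 4.10 and 5.20 and say only that it was not above background. The other 8 measured subunits were above the floor on all 12 arrays.

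Itgb1 (TC0800001599.mm.2), the common beta subunit, was high on every array. It read 17.03, 17.20 and 16.06 on scramble 1, 2 and 3, 17.80, 17.73 and 18.12 on the miR-21 arrays, 17.26, 17.26 and 18.00 on miR-34a 1, 2 and 3, and 17.55, 16.24 and 16.52 on miR-324 1, 2 and 4. Every miR-21 and every miR-34a array lay above the highest scramble array, those of suffix A by only 0.06, and scramble 3 and miR-324 2 were lowest. The difference from scramble was 1.12 ± 0.38 (SE; adjusted p = 0.17) with miR-21 and 0.74 ± 0.38 (adjusted p = 0.999) with miR-34a. With miR-324 it was 0.01 ± 0.38 (adjusted p = 0.995), with a 95% interval from -0.83 to 0.84.

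Itgb8 (TC1200002511.mm.2), the partner of alphav in TGF-beta activation, rose with miR-21. It read 11.38, 11.76 and 9.39 on scramble 1, 2 and 3 and 13.33, 13.44 and 13.81 on the miR-21 arrays. On miR-34a 1, 2 and 3 it read 11.80, 11.67 and 13.26, and on miR-324 1, 2 and 4 it read 11.51, 10.77 and 10.48. The lowest miR-21 array was above every array of the other 3 groups, and scramble 3 was the lowest of all 12. The group levels were 10.84 ± 1.27 (SD, n = 3) for scramble, 13.53 ± 0.25 for miR-21, 12.24 ± 0.88 for miR-34a and 10.92 ± 0.53 for miR-324. The rise with miR-21 was 2.68 ± 0.57 (SE; adjusted p = 0.049), a 6.42-fold higher signal. The differences with miR-34a, 1.40 ± 0.57 (adjusted p = 0.999), and with miR-324, 0.08 ± 0.57 (adjusted p = 0.958), did not pass. In the order of levels, scramble, miR-324, miR-34a and miR-21, no neighbouring pair differed past the threshold.

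The call of Itgb8 with miR-21 was close to the threshold and did not hold when any 1 of the 6 arrays was left out (differences of 1.96 to 3.14, adjusted p from 0.051 to 0.15). The smallest of these differences, 1.96 (adjusted p = 0.081), came without scramble 3. No suffix holds both miR-21 and scramble arrays, so the suffix and this comparison cannot be told apart by arrays within a suffix. In a fit with the suffix as a block, which leans on the other groups, the difference was 1.98 (adjusted p = 0.17).

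**Figure D2:**
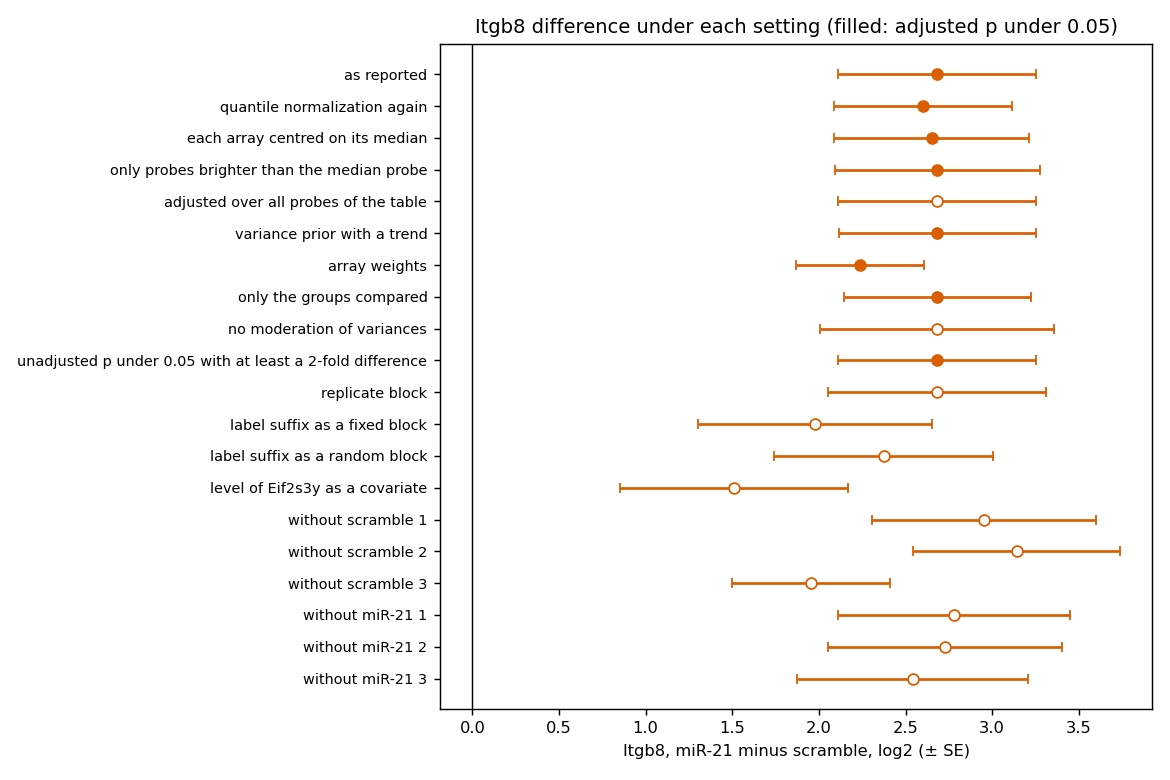
Difference of Itgb8 between miR-21 and scramble (x axis, log2, with bars for the SE) under each processing setting and with each array left out (y axis), filled where the adjusted p was under 0.05. All values lie above 0, from 1.51 in the fit that adjusts for Eif2s3y to 3.14, and the value as reported is 2.68.

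Medians of cell type markers also differed between groups. Against scramble, 1.04% of all named probes were called with miR-21 and 0% with miR-324. Those with an unadjusted p under 0.05 in limma were 16.6% and 14.7%, in that order. In miR-21 the median of the 12 measured markers of myelinating Schwann cells lay between 9.75 and 10.02, against 7.36 to 7.82 with scramble, and 3 of them (Mbp, Pmp2 and Cldn19) rose past the threshold, while Mag was not above the floor on any array. The pan-neuronal median lay between 12.13 and 12.49 against 13.50 to 13.85 with scramble, with 0 of 15 markers called by limma and 1 at an unadjusted p under 0.05. In miR-324 the endothelial median lay between 11.17 and 12.44 against 9.13 to 11.13 with scramble, with 0 of 13 called and 11 at an unadjusted p under 0.05. Scramble 3, with high Prl like the miR-324 arrays, held the 11.13, close to the lowest miR-324 array, and scramble 1 and 2 were at 9.13 and 9.62. The pan-neuronal median in miR-324 lay between 10.83 and 13.25, under every scramble array, with 0 of 15 called and 4 at an unadjusted p under 0.05. Of 13 sensory neuron markers, all had lower means in miR-324 than in scramble, with 0 called and 7 at an unadjusted p under 0.05. The part of these cells in the integrin values was not tested.

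**Figure D3:**
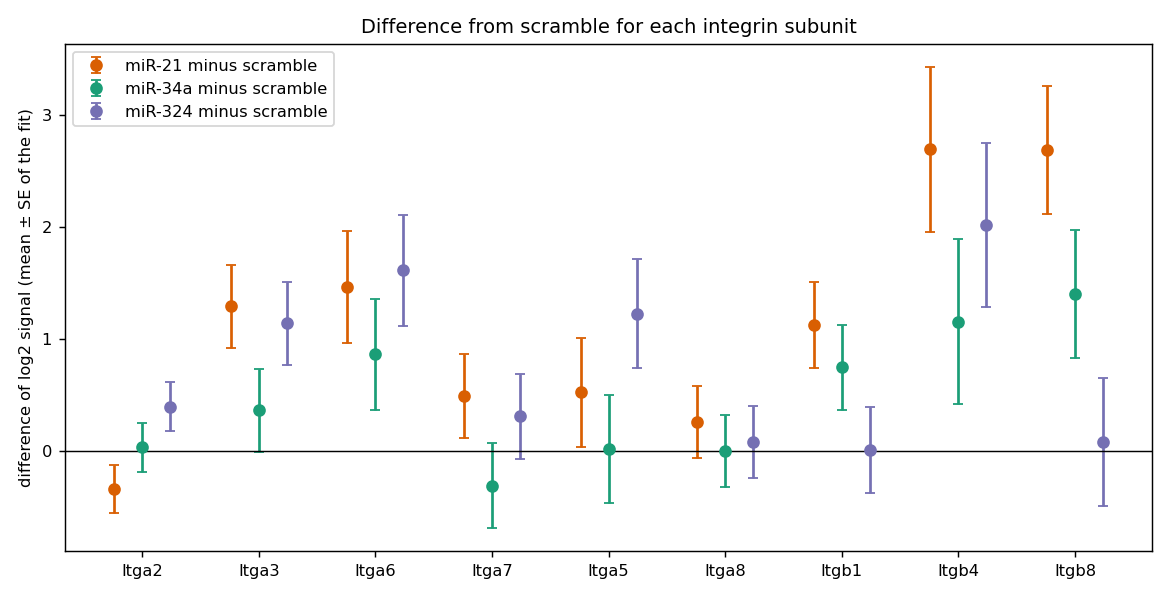
Difference of log2 signal from scramble (y axis) for each measured subunit (x axis) and each of the 3 miRNAs by colour, with points for the limma estimate and bars for its SE. Itgb4 and Itgb8 have the largest differences with miR-21 (2.69 and 2.68), of which that of Itgb8 passed the test, and Itgb1 and Itgb8 lie near 0 with miR-324 (0.01 and 0.08).

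Between miRNAs Itgb8 was again the subunit that passed the test. It was lower with miR-324 than with miR-21 by -2.61 ± 0.57 (SE; adjusted p = 0.036), a 6.09-fold lower signal, in all 3 arrays against all 3. It was the 1 of 9 subunits called in that comparison, where 2.46% of all named probes were. This call held without miR-324 1 (-2.90, adjusted p = 0.044) and in none of the other 5 fits that left out 1 array (adjusted p from 0.11 to 0.14, differences from -2.71 to -2.39). Among the arrays without a suffix, miR-324 1 and 4 differed from the mean of the 3 miR-21 arrays by -2.53. Prl also separated these groups, at 14.26 to 15.17 with miR-324 and 3.37 to 3.98 with miR-21. The endothelial median did too, at 11.17 to 12.44 against 8.42 to 9.22. Their part in the Itgb8 difference was not tested. Itgb1 was lower in all miR-324 arrays than in all miR-21 arrays, by -1.11 ± 0.38 (adjusted p = 0.18), and Itga2 was higher, by 0.73 ± 0.22 (adjusted p = 0.12). Neither passed, although both had an unadjusted p under 0.05, as did 14.7% of all probes. These and Itgb8 made 3 of 9 subunits without overlap, against 21.4% of all named probes.

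Between miR-34a and miR-21, 0 of 9 subunits were called by limma, where 0.158% of all probes were, and 2 (Itga3 and Itgb8) had an unadjusted p under 0.05, against 11.3% of all probes. Itga3, Itga5, Itga7 and Itgb8 were lower on all miR-34a arrays, 4 of 9 against 10.9% of all probes. Itga3 differed by -0.93 ± 0.37 (adjusted p = 0.38) and Itgb8 by -1.28 ± 0.57 (adjusted p = 0.43). Between miR-34a and miR-324 the count was also 0 of 9, where 0% of all probes were called, with 2 (Itga5 and Itgb8) at an unadjusted p under 0.05 against 13% of all probes. Itgb8 was higher on all miR-34a arrays, by 1.32 ± 0.57 (adjusted p = 0.37), Itga2 was lower on all of them, by -0.36 ± 0.22, and together these were 2 of 9 against 17.1% of all probes.

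Within miR-34a the array without a suffix, miR-34a 3, stood apart from the other 2. The suffix and that single array cannot be told apart there. For the 8 subunits above the floor, miR-34a 1 and 2 differed from scramble 1 and 2, all of suffix A, by 0.01 to 0.21 on the log2 scale, with 0 called by limma, where 0% of all probes were, and 0 at an unadjusted p under 0.05, where 3.89% were. The third miR-34a array, without a suffix, differed from miR-34a 1 and 2 by 3.37 for Itgb4, 1.54 for Itga6, 1.53 for Itgb8, 0.81 for Itga3, 0.74 for Itgb1 and 0.54 for Itga5, and by -0.67 for Itga7 and -0.49 for Itga2. Without it the difference between miR-34a and scramble was 0.03 for Itgb4, 0.35 for Itga6 and 0.09 for Itga3, but still 0.89 for Itgb8 and 0.50 for Itgb1. Those of Itgb8 and Itgb1 were smallest without scramble 3, at 0.67 and 0.39. On miR-34a 3 the pan-neuronal median was 10.19, the lowest of the 12, and the Schwann cell median was 9.86. Their part in the values was not tested.

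Scramble 3 also stood apart for 2 of the 3 beta subunits, differing from the mean of scramble 1 and 2 by -2.18 for Itgb8 and -1.06 for Itgb1, and by 0.50 for Itgb4. Against it, miR-324 2, the other array of suffix B, was higher by 1.38 for Itgb8, 1.09 for Itga6 and 0.99 for Itgb4 and differed by -0.29 for Itga5, with 1 array a side and no test. The 4 arrays with high Prl held Itgb8 signals of 9.39 to 11.51, and the other 8 held 11.38 to 13.81. For Itgb1 the ranges were 16.06 to 17.55 and 17.03 to 18.12.

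Across all groups, 4 of the 9 subunits separated the 6 arrays without a suffix from the 6 with one, against 2.46% of all named probes that were higher without overlap. Itga3 read 11.01 to 12.14 without a suffix and 10.06 to 10.48 with one. Itga6 read 13.88 to 15.48 against 12.44 to 13.53, and Itgb4 7.50 to 9.11 against 5.23 to 7.03. These are the laminin-binding alpha3 and the alpha6 and beta4 pair. Itga5 also separated the arrays, but by 0.02, with 10.65 to 12.90 against 9.96 to 10.63. The suffix estimate of the fit that follows rests on miR-34a and miR-324, the groups with arrays of both kinds. In them miR-34a 3 alone lacked a suffix and miR-324 2 alone had one. In a limma fit with the suffix beside the group, chosen after the values were seen, the arrays without a suffix were higher by 2.21 ± 0.47 for Itgb4 (SE; adjusted p = 0.064), 1.37 ± 0.37 for Itga6 (adjusted p = 0.090), 0.98 ± 0.28 for Itga3 (adjusted p = 0.11) and 1.14 ± 0.41 for Itga5 (adjusted p = 0.18). Of the 9, 0 passed and 6 (these, Itgb1 at 0.77 ± 0.35 and Itga7 at -0.83 ± 0.33) had an unadjusted p under 0.05, where 0.388% of all probes passed and 17.3% had such an unadjusted p. In that fit Itgb8 differed by 0.88 (adjusted p = 0.45).

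**Figure D4:**
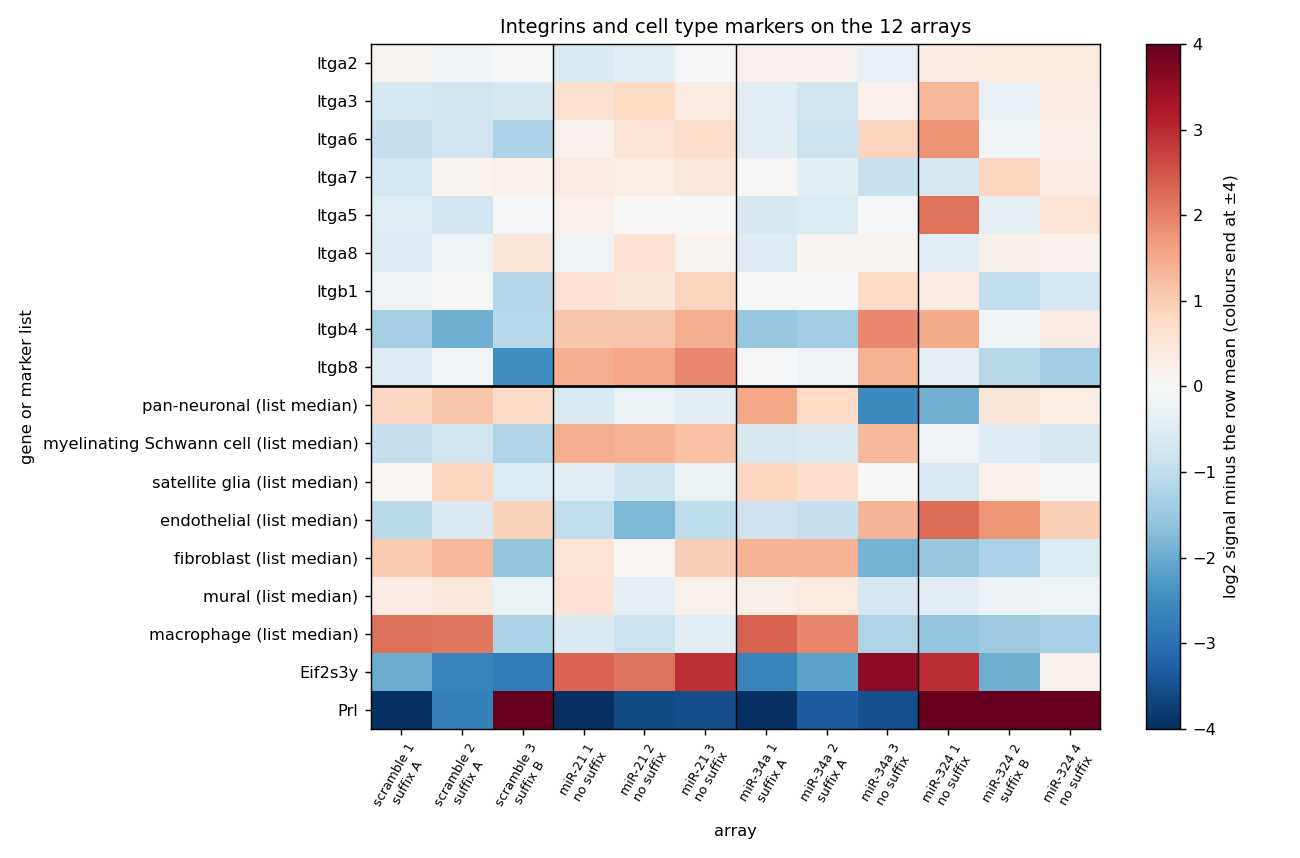
Log2 signal minus the row's mean over the 12 arrays (colour, ending at 4 on either side) of the 9 measured subunits and, under the line, of cell type marker medians, Eif2s3y and Prl, with arrays in columns by group and their suffix named. The 6 arrays without a suffix are the higher ones for Itga3, Itga5, Itga6 and Itgb4, and Itgb1 and Itgb8 are lowest on scramble 3, whose Itgb8 signal is 9.39.

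Pairs of subunits moved together over the 12 arrays in different ways. Of the 28 pairs among the 8 subunits above the floor, 5 had a Pearson r over 0.8. The highest was Itgb1 with Itgb8 (r = 0.94, and 0.89 after group means were taken out), followed by Itga3 with Itga6 (0.92 and 0.89), Itga6 with Itgb4 (0.89 and 0.82), Itga3 with Itgb4 (0.87 and 0.73) and Itga3 with Itga5 (0.83 and 0.91). The lowest was Itga2 with Itgb8 (-0.66). These values describe 12 arrays that share groups, suffixes and cell makeup, and carry no test. Itgb8 had r = 0.90 with the Schwann cell median and Itgb4 had r = 0.97 with Eif2s3y, which follows the suffix, and r = -0.89 with the pan-neuronal median, 3 pairs singled out after their values were seen.

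The promoters of Itgb8 and Itgb1, the pair that moved most alike, are shown as the 250 bases before the RefSeq start (GRCm38.p6), 5′ to 3′ on the gene's strand, with motif matches in capitals. Motifs searched on both strands were the GC box GGGCGG, the CCAAT box CCAAT, the TATA box TATAAA, the AP-1 site TGACTCA and the cAMP response element TGACGTCA.
Itgb8, chr12:119238277-119238526, minus strand: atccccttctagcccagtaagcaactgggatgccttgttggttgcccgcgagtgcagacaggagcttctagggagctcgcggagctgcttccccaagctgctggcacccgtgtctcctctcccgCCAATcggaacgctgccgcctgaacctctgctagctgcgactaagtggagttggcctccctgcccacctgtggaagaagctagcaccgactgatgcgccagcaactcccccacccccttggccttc
Itgb1, chr8:128685404-128685653, plus strand: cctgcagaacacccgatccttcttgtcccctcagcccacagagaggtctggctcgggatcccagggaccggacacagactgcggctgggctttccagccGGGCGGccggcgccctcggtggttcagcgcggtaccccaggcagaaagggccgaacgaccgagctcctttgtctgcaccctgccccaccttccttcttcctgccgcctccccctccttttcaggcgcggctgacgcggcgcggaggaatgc
The Itgb8 window had 1 CCAAT box, 126 bases before the start, and the Itgb1 window had 1 GC box, 151 bases before it. No other motif of the 5 matched in either, so they shared none. Among 32536 such promoter windows, 33.0% held a GC box, 33.8% a CCAAT box, 12.3% a TATA box, 4.45% an AP-1 site and 1.56% a cAMP response element. The GC content was 62.4% for Itgb8 and 68.0% for Itgb1, where the median window had 52.4% and the upper quartile 61.2%.

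The genes whose signal was most like each subunit over the 12 arrays were named by the highest Pearson r. For Itga6 they were Col4a2 (r = 0.98), a chain of basement membrane collagen, Fn1 (0.97), which encodes fibronectin, and Tcf12 (0.96). For Itgb8 they were Megf9, Me1 and Adgrl3 (all 0.98), for Itgb1 Pmepa1 (0.98), Cxcl14 (0.97) and St6gal1 (0.97), and for Itgb4 Fam102a, Zfp106 and Smurf1 (all 0.97). Itga3 was most like Myh9, Gtf3c2 and Pdcd11 (all 0.95), and Itga5 most like Ano1 (0.96), Adm (0.95) and Prg3 (0.94). For Itga2 (Sema3e at 0.85, Fam78a and Olfr464 at 0.83) and Itga7 (Olfr319 at 0.93, Nudt3 and Fam216a at 0.89) the lists held olfactory receptor genes, which mark the floor here. Itga8, itself at the floor, was most like Padi1 (0.88), Arfip2 (0.86) and Cfap43 (0.85).

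Of 23 measured genes of laminin, collagen and basement membrane, the matrix that these receptors bind, 5 rose with miR-21 and 0 fell against scramble, where 1.04% of all named probes were called, and the median difference of the list was 1.00 beside 0.13 over all probes. The laminin chain genes Lama2, which encodes the alpha chain of nerve basement membrane, Lamc1 and Lamb1 rose by 2.81 ± 0.41 (SE; adjusted p = 0.014), 1.86 ± 0.29 (adjusted p = 0.017) and 1.27 ± 0.24 (adjusted p = 0.029). The others were Hspg2, which encodes perlecan, at 3.75 ± 0.59 (adjusted p = 0.017) and Col1a2 at 4.45 (adjusted p = 0.029). Lamb1 is named beyond the rule of 4 genes a list, after its value was seen. Each of these calls was lost when some array was left out: Lama2 kept it in the 3 fits without a scramble array, Lamc1 and Hspg2 without scramble 2 or 3, Col1a2 without scramble 1 or 3, and Lamb1 without scramble 2. With the suffix as a fixed block, 7 of the 9 list genes called with miR-21 lost the call (adjusted p from 0.053 to 0.14), all but Lama2 and Col1a2, and Hspg2 was at 1.95.

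Of 16 RGD and related ligand genes, 1 rose with miR-21, Tnn, a tenascin (adjusted p = 0.042), with a list median of 1.29. In this comparison 1.04% of all named probes were called. Tnn read 9.81, 5.33 and 10.56 on miR-21 1, 2 and 3, the second not above the floor, and 3.35 to 4.19 on the scramble arrays, none above it. Against the scramble floor its mean signal was 11.3-fold higher, with miR-21 2 counted at its own signal, so this is not a lower bound. That call held only without miR-21 2 among the fits that left out 1 array. Of 36 genes of the adhesion complex, which ties integrins to actin, 3 rose: Kank2 by 1.64 (adjusted p = 0.032), the actin crosslinker gene Flna by 2.45 (adjusted p = 0.042) and the vinculin gene Vcl by 1.49 (adjusted p = 0.048), with a list median of 0.50. None of these 3 calls held without 1 array (adjusted p from 0.055 to 0.16).

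Other receptors did not pass with miR-21. Among 16 other integrin subunits 0 were called by limma and 6 had an unadjusted p under 0.05, where 16.6% of all probes did. Itgav, the partner of beta8, differed by 1.10 ± 0.38 (adjusted p = 0.17). Itgb2, a leukocyte subunit, had a lower mean (adjusted p = 0.23) and was not above the floor on any miR-21 array or on scramble 3. Its mean scramble signal, scramble 3 included, was 1.94-fold above the floor of the miR-21 arrays, which is not a lower bound. Among 13 non-integrin laminin and collagen receptors 0 were called, with 8 at an unadjusted p under 0.05, and the dystroglycan gene Dag1 came closest, at 2.82 ± 0.66 (adjusted p = 0.064), while Bcam, a laminin receptor of the immunoglobulin family, was at -1.97 (adjusted p = 0.23). Among 8 tetraspanins and hemidesmosome partners 0 were called and 0 had an unadjusted p under 0.05, with Cd81 at 0.45 and Cd151, a binding partner of alpha3 and alpha6, at -0.35.

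In none of the 6 lists did a gene pass against scramble with miR-34a or miR-324. With miR-34a no list had a gene with an unadjusted p under 0.05, and the smallest p-values belonged to Itgad (0.51, not above the floor), Nid1 (1.04), Ccn1 (1.64), Flna (1.01), Cd81 (0.44) and Dag1 (1.31) on the higher side and to Itgax (-0.31, not above the floor), Lamb3 (-0.70, not above the floor in either group), Tnc (-1.10), Src (-0.46), Tspan4 (-0.14) and Mcam (-0.31) on the lower. With miR-324, where 14.7% of all probes had an unadjusted p under 0.05, the numbers that did were 3 of 16 integrin subunits, 7 of 23 laminin and collagen ligands, 1 of 16 RGD ligands, 12 of 36 adhesion genes, 0 of 8 tetraspanins and hemidesmosome partners, and 5 of 13 other receptors. Hspg2 differed by 2.13 and Lama2 by -1.11 (adjusted p = 0.31 for both), Fn1 by 1.14 and the tenascin-C gene Tnc by -2.30. Tns1 differed by 1.17, Adgrg1 by 1.00 and Itga9 by 0.82, and on the lower side Sdc1 by -1.89 and Cd151 by -0.50. The smallest p-values on the lower side of the other lists were those of Itgb2 and Fermt3, genes of blood cells, which were not above the floor on any miR-324 array (3.59 to 3.84 and 2.39 to 3.19) and above it on scramble 1 and 2 only. Against that floor the mean scramble signal, scramble 3 included, was 1.80-fold higher for Itgb2 and 1.07-fold for Fermt3. These are not lower bounds, since scramble 3 was itself not above its floor. The macrophage marker median was 4.58 to 4.84 in miR-324 against 4.87 to 8.33 with scramble. Its part in these values was not tested.

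Set directly against miR-21, miR-324 had 6 laminin and collagen genes lower (Lama2, Lamb1, Lamc1, Col1a1, Col1a2 and Col5a1) of 23, 3 RGD ligand genes (Tnn, Frem1 and Tgfb3) of 16, 4 adhesion genes (Tln2, Ilk, Vcl and Kank2) of 36 and 1 other receptor (Adgrg6) of 13, beside Itgb8, with 0 genes of these lists higher, where 2.46% of all probes were called. With miR-324, Tnn was above the floor on 0 of 3 arrays and Frem1 on 1 of 3. These list genes were not rechecked in other settings for this comparison. Over all probes its 481 calls became 86 to 402 with 1 array left out and 53 without moderated variances. Prl and the endothelial median separated these groups too, and their part in these calls was not tested. Against miR-21, miR-34a had 1 gene of the 6 lists lower, Lama2, where 0.158% of all probes were called.

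**Figure D5:**
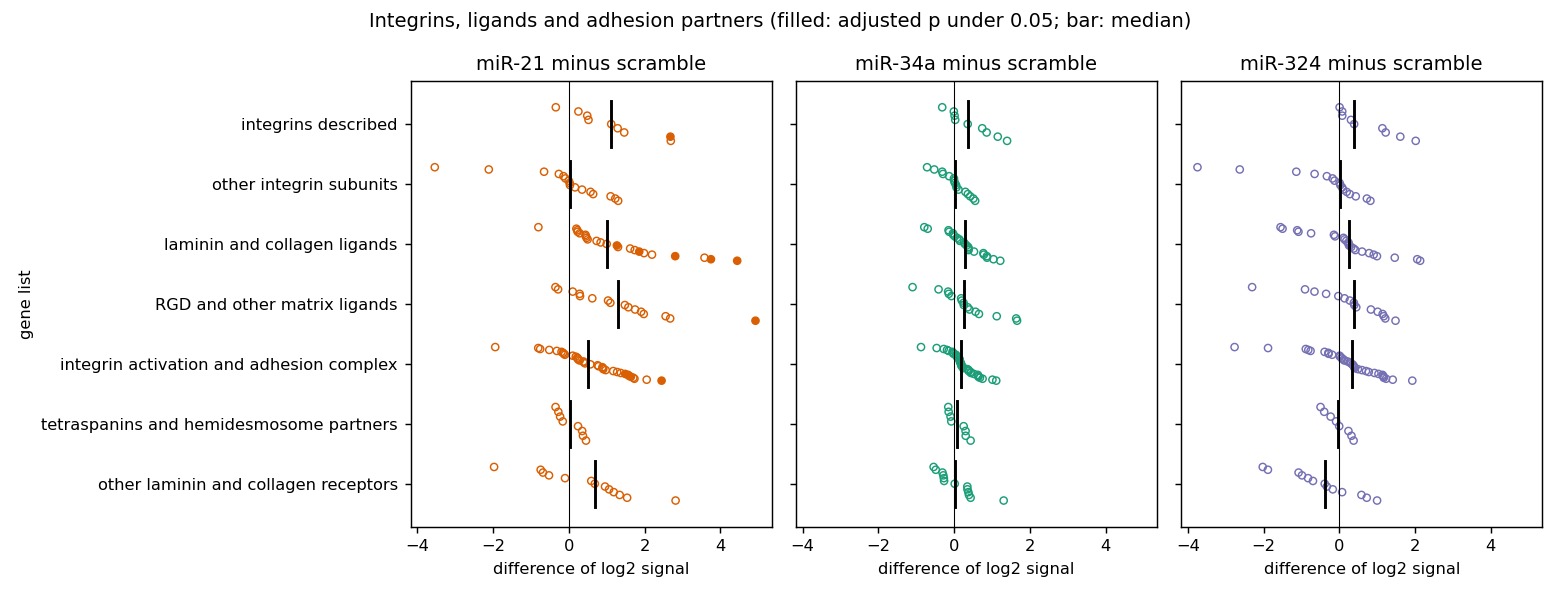
Difference from scramble (x axis, log2) of each measured gene of the integrin members and 6 pathway lists, 1 panel per miRNA, with filled points for an adjusted p under 0.05 and bars for list medians. The miR-21 panel holds 5 filled points among laminin and collagen ligands, 1 among RGD ligands, 3 in the adhesion complex and 1 among the members, and the other panels hold 0.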

How the data were processed

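Total RNA of mouse trigeminal ganglion neurons in primary culture (12 arrays) was labelled with biotin and hybridised to Clariom S Mouse arrays. The authors deposited log2 values. The submitters' processing notes name RMA, the robust multi-array average, and version 4.0 of Transcriptome Analysis Console. RMA removes background, gives all arrays a common distribution and summarises each probe set, so a change of total signal is lost and differences near the floor are understated. Arrays have no read depth, and 3 arrays a group limit the precision. The scramble label that repeats the number 1 is called scramble 3.

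Of 22206 probes, 19572 had 1 gene symbol in the platform's annotation and 2634 had none, and all 19572 gene identifiers, those of the 9 measured integrins included, matched RefSeq (GRCm38.p6). A gene with several probes was taken by its brightest. Group means of all 12 arrays were fitted with lmFit and eBayes of limma 3.58.1 (R 4.3.3), with 8 residual degrees of freedom. Tests were two-sided, p-values were adjusted by Benjamini-Hochberg over 19572 probes, and calls were made at 0.05. The fit was also run on simulated data with independent noise on each array and no suffix. That run cannot show how the fit behaves where arrays of a suffix move together. Members and lists were chosen with earlier results of these data known. Named beside the members were up to 4 called genes a list by smallest adjusted p, or the gene of smallest p in each direction, and the 3 genes most like each member, placeholder symbols left out. No same-numbered arrays were stated to share an animal or culture, and the numbers were not used as pairs. Alternatives changed the scaling, the probes tested, the variance model and the blocks, and left out each array.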

Additional observations from a re-analysis of the deposited data

How the results depend on the processing

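For the count of integrins called with miR-21 against scramble, 1 as reported, the count was 0 with p adjusted over all probes of the table, without moderated variances, with the replicate block, with the suffix as a fixed or as a random block and with Eif2s3y as a covariate, 4 with only the compared groups fitted (Itga3, Itga6, Itgb4 and Itgb8), and 5 with array weights or with an unadjusted p under 0.05 and a 2-fold difference. Leaving out 1 array gave 0 to 0. For miR-324 against miR-21, also 1, the count was 0 without moderation and with the replicate block, 3 with array weights, 2 with the unadjusted rule and 0 to 1 with 1 array left out. The counts of 0 became 3 with array weights for miR-324 against scramble, miR-34a against miR-21 and miR-34a against miR-324. With the unadjusted rule they became 4, 1 and 2 in that order, and 1 for miR-34a against scramble. Leaving out miR-34a 3 gave 1 call, Itgb4, in both comparisons of miR-34a with another miRNA, so the range was 0 to 1.

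Over all probes, 204 were called with miR-21 against scramble, 310 among the brighter probes alone, 906 with only the compared groups, 2390 with array weights, 17 without moderation, 129 with the replicate block, 684 and 34 with the suffix as a fixed and a random block, and 11 to 81 with 1 array left out. For miR-324 against scramble, with 0 calls, array weights gave 2589 and leaving out scramble 3 gave 383. Same-numbered arrays correlated above 0.1 in their deviations from group means in 4 of 15 pairs (-0.41 to 0.47). Arrays of suffix A with unlike numbers correlated too, scramble 1 with miR-34a 2 at 0.31 and scramble 2 with miR-34a 1 at 0.34. The number of scramble 3 was given here and is not in its label. These values therefore cannot show whether the numbers mark shared cultures. All-probe medians shifted with miR-21 by 0.13 as deposited, 0.03 after a further quantile normalization and 0.10 after centring.

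No called difference of an integrin turned its sign. Among uncalled ones, the following did. With the suffix as a fixed block, Itga5 became -0.61 (miR-21 against scramble), -0.37 (miR-34a against scramble) and 0.24 (miR-34a against miR-21), Itga3 0.18 (miR-324 against miR-21), Itga6 0.25 and Itgb4 0.30 (miR-34a against miR-21), Itgb4 0.43 (miR-34a against miR-324), Itga7 0.036 (miR-34a against scramble), and Itgb1 -0.26 and Itgb8 -0.17 (miR-324 against scramble). As a random block it gave Itga5 -0.16 (miR-34a against scramble), Itgb1 -0.11 and Itgb8 -0.030 (miR-324 against scramble). With Eif2s3y, which separates miR-21 from scramble fully, Itga5 became -0.61 and Itga6 -0.033 (miR-21 against scramble), Itga3 -0.041, Itga5 -0.46 and Itga7 0.075 (miR-34a against scramble), Itgb1 -0.51 and Itgb8 -0.61 (miR-324 against scramble), Itga3 0.25 and Itgb4 0.32 (miR-324 against miR-21), and Itga5 0.15, Itga6 0.26 and Itgb1 0.14 (miR-34a against miR-21). With array weights, Itga5 was -0.055 and Itga7 0.10 (miR-34a against scramble), Itga6 -0.067 (miR-324 against miR-21), and Itgb1 -0.39 and Itgb8 -0.57 (miR-324 against scramble). Quantile normalization gave Itga2 -0.0060 and Itga5 -0.057 (miR-34a against scramble) and Itga7 0.0069 (miR-324 against miR-21). Within arrays of 1 suffix, Itga7 was 0.07 (miR-34a against scramble), Itga5 -0.29 (miR-324 against scramble), Itga3 0.23 (miR-324 against miR-21), Itga6 0.42, Itgb1 0.12 and Itgb4 0.71 (miR-34a against miR-21) and Itgb4 1.04 (miR-34a against miR-324). With 1 array left out, the ranges that crossed 0 were -0.052 to 0.19 for Itga2 and -0.17 to 0.19 for Itga5 (miR-34a against scramble), -0.60 to 0.23 for Itga3, -0.43 to 0.54 for Itga6 and -0.51 to 0.23 for Itga7 (miR-324 against miR-21), and -0.025 to 0.72 for Itga7, -0.38 to 0.27 for Itgb1 and -0.65 to 0.54 for Itgb8 (miR-324 against scramble). Of the list genes, the fixed block gave Bcam 0.14 and Cd81 -0.082 (miR-21) and Tnc 0.77 (miR-324), and Eif2s3y gave Bcam 0.043 and Cd81 -0.065 (miR-21) and Tnc 0.40 and Tspan4 0.076 (miR-34a), all against scramble. For miR-34a against scramble, weights gave Mcam 0.017 and Tnc 0.019, suffix A gave Tnc 0.13, and leaving out 1 array gave -0.58 to 0.14 for Mcam, -2.04 to 0.74 for Tnc and -0.43 to 0.16 for Tspan4. Of the 9 list genes called with miR-21, 9 lost the call without moderated variances, 7 with the suffix as a random block, 7 with Eif2s3y, 4 with the replicate block (Flna, Kank2, Lamb1 and Vcl) and 1 over all probes of the table (Vcl). The causes were not tested. A mean over several probes was not run, since each integrin has 1, and no suffix holds both miR-21 and scramble arrays.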
